A study of Mus musculus with 16 samples.

Results

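Creg2, Plcxd3, Asic4, Fam219a, Rgl3 and Ccdc170 are 6 of the 56748 genes in the mouse colon count table, and they were chosen by their counts in the distal colon, where the Ednrb-/- libraries lay below the wildtype libraries. The distal libraries thus entered the choice, and the distal difference is given as a description with no test. The libraries labelled proximal did not enter the choice, and the genotype difference in them was tested. That test would not be free of the choice if both segments came from the same mice or if segment labels were exchanged. All 6 genes passed the filter on low counts in both segments.

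The libraries came from the longitudinal muscle layer with its attached myenteric plexus (LMMP), dissected from mice homozygous for the Ednrb tm1Ywa allele (Ednrb-/-, called HSCR after Hirschsprung disease) and from wildtype Ednrb+/+ littermates (WT). The mice were males and females, 2 to 4 weeks old, on a hybrid C57BL6/J-129Sv background, and no group received a treatment. The 4 groups were WT proximal, HSCR proximal, WT distal and HSCR distal colon, with 4 polyA RNA-seq libraries each. The allele is carried by every cell and not by the gut alone, and the model leaves the distal colon without ganglia while the distended proximal colon keeps them. The sample names gave the segment, because the tissue entries of the 8 distal libraries read proximal. Whether proximal and distal libraries came from the same mice was not stated.

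The enteric nervous system is formed by neural crest cells that migrate along the gut, and endothelin 3 acting on the endothelin B receptor keeps these cells dividing and undifferentiated until they reach the end of the colon. Where they do not arrive, the muscle has no neurons of its own, although nerve fibres from outside the gut can still run through it. The 6 genes belong to unrelated families. Creg2 encodes a secreted glycoprotein found mainly in brain, Plcxd3 a protein with the catalytic X domain of phosphatidylinositol-specific phospholipase C, Asic4 a member of the acid-sensing ion channel family, Rgl3 an exchange factor that links Ras to the small GTPase Ral, and Ccdc170 a coiled-coil protein that binds microtubules. Fam219a encodes a protein with no established function.

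In mm39 coordinates, Creg2 (ENSMUSG00000050967) lies at chr1:39657574-39690642 on the minus strand with 4 exons in its canonical transcript. Plcxd3 (ENSMUSG00000049148) spans chr15:4404973-4605035 on the plus strand with 3 exons. Asic4 (ENSMUSG00000033007) is at chr1:75427080-75450987 on the plus strand with 10 exons, and Fam219a (ENSMUSG00000028439) is at chr4:41517691-41569538 on the minus strand with 6 exons. Rgl3 (ENSMUSG00000040146) is at chr9:21880007-21900742 on the minus strand with 19 exons, and Ccdc170 (ENSMUSG00000019767) is at chr10:4432502-4512231 on the plus strand with 11 exons. The genes do not form a cluster, since only Creg2 and Asic4 share a chromosome. Exon bases overlapped genes of the opposite strand for 15.1% of Creg2, 22.6% of Asic4, 23.5% of Fam219a and 1.98% of Ccdc170, and for none of Plcxd3 or Rgl3. Whether reads were counted by strand was not stated, so reads in these stretches cannot be assigned with certainty. The overlapping genes were themselves low, and the highest of them, the axonemal dynein gene Dnai1 beside Fam219a, reached 3.98 CPM (read counts scaled by library size) at most.

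Promoter windows of 250 bases before the gene start were taken from RefSeq (GRCm38.p6, an older build than that of the counts) and matched 5 of the 6 genes, all but Asic4. The windows of 3 genes are shown because Creg2 and Fam219a had the most similar levels over the 16 libraries and Plcxd3 had no count in any HSCR distal library. They are chr1:39651183-39651432 (minus strand) for Creg2, chr15:4375241-4375490 (plus strand) for Plcxd3 and chr4:41569539-41569788 (minus strand) for Fam219a. Capitals mark TGACG (the core of a cAMP response element), CAGCTG (an E-box) and GGGCGG (a GC box), each on either strand.
Creg2: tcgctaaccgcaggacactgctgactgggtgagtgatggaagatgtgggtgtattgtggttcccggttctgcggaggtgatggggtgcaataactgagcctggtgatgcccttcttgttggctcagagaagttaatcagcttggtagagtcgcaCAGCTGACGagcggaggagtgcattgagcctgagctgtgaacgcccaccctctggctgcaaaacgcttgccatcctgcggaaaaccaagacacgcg
Plcxd3: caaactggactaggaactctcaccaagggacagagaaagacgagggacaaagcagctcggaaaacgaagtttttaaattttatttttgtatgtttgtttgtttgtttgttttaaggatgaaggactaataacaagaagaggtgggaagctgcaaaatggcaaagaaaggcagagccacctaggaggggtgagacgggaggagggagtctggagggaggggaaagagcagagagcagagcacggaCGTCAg
Fam219a: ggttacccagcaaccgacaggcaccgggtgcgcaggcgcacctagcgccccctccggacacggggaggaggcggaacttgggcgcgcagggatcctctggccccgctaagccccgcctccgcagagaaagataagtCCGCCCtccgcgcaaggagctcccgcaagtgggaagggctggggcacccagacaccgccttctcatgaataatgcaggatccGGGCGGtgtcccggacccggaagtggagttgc

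The 3 windows differed in composition. GC content was 56% with 12 CG pairs in Creg2, 46.8% with 6 CG pairs in Plcxd3 and 68% with 22 CG pairs in Fam219a, beside medians of 52.4% and 6 CG pairs over 32851 promoter windows. TGACG was found in Creg2 and Plcxd3 and in 17.8% of all windows, and in Creg2 it overlapped the CAGCTG that 13% of all windows hold. GGGCGG was found in Fam219a and Rgl3, at 2 places each, and in 32.7% of all windows. Of the other motifs searched on both strands, TATAAA was found in Rgl3 (12.4% of all windows), GGACAG in Plcxd3 (18.7%) and CAGGTG in Rgl3 and in 1 of the Ccdc170 windows (17.2%). The letters TGACGTCA (1.55% of all windows), TTCAGCACC (0.301%), TAATTA (4.84%) and the palindromic motif of NRF1 (0.782%) were in none of them. No motif was shared by all 5 genes.

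The libraries held 21384372 to 45831881 counts, and mitochondrial genes took 4.32% to 49.8% of them. WT proximal libraries 1 to 4 had shares of 49.8%, 17.8%, 7.32% and 34.6%, mostly above the 5.56%, 6.68%, 6.34% and 20.1% of the HSCR proximal ones. Ednrb itself, counted over the whole gene and not over the disrupted part, was at 64.5, 33.8, 67.1 and 53.0 CPM in WT proximal libraries 1 to 4 and at 7.84, 11.9, 37.4 and 35.3 CPM in HSCR proximal libraries. In the distal colon it was at 11.8, 15.7, 29.6 and 43.0 CPM in WT and at 94.8, 5.43, 6.10 and 9.48 CPM in HSCR. The library labelled HSCR distal 1 thus had the highest Ednrb level of all 16. It also held neuronal transcripts, with a mean log2 CPM over 19 enteric neuron genes of 5.38 where the other HSCR distal libraries lay between -1.39 and 0.83, and its posterior Hox genes were low at 1.75, where WT distal libraries lay between 2.89 and 4.23. HSCR proximal library 1 went the other way, with 1.49 on the neuron genes and 3.64 on the posterior Hox genes, where WT proximal libraries lay between 0.62 and 2.65. HSCR distal library 4 also lay below the WT distal libraries on the posterior Hox genes, at 2.25, but held few neuronal transcripts, at -1.39. The segment labels of the 2 HSCR libraries numbered 1 are in doubt from both lists, and the data cannot settle whether they were exchanged. The Ednrb level of the library labelled HSCR distal 1 also lay above all HSCR proximal libraries. WT distal library 1, in turn, was low on the neuron genes, at 1.39. Whether a genotype label is wrong was not tested. HSCR proximal library 2 had the highest level of epithelial genes of all libraries, at 9.15, and the lowest of smooth muscle genes, at 7.84. Values are therefore given per library.

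**Figure D1:**
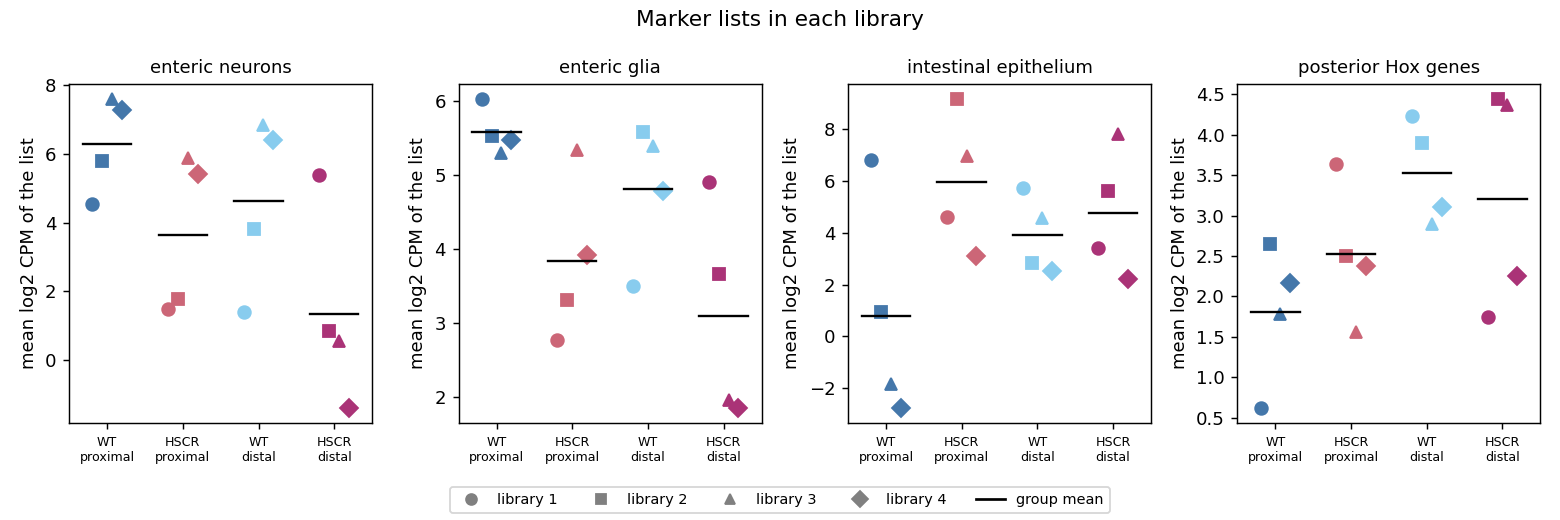
Mean log2 CPM of the enteric neuron, enteric glia, intestinal epithelium and posterior Hox gene lists (y axis) in each of the 16 libraries, by group (x axis). Symbols give the library number and bars the group mean. The library labelled HSCR distal 1 stands at 5.38 on the neuron list, among the WT libraries, and WT distal library 1 at 1.39, near the other HSCR distal libraries.

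In the distal colon each of the 6 genes was lower in all 4 HSCR libraries than in all 4 WT libraries, which is the pattern the genes were chosen for. Of the 17059 genes tested, 1.15% showed it, or 197 genes, and 46.1% had a log2 fold change below 0, as all 6 did. Creg2 was at 4.86, 4.72, 27.0 and 30.9 CPM in WT distal libraries 1 to 4 and at 0.726, 0.912, 0.254 and 0.365 CPM in the HSCR libraries. The means were 16.9 ± 14.0 and 0.564 ± 0.307 CPM (SD, n = 4), a 29.9-fold difference, and the lowest WT library still lay well above the highest HSCR library. The library labelled HSCR distal 1 was no exception, and without it the fitted log2 fold change was -5.02 instead of -4.85.

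Plcxd3 had 28, 24, 39 and 74 counts in the WT distal libraries, or 0.902, 0.674, 0.806 and 1.86 CPM, and no count in any HSCR distal library. With 3 counts per library as the limit that a count of 0 allows, its mean was at least 12.2-fold higher in WT. Ccdc170 was close to this, with 48, 14, 41 and 19 counts in WT (1.55, 0.393, 0.847 and 0.477 CPM) and 2 counts in HSCR library 4 as its only reads there. The ratio of the summed counts, scaled by library size, was 56.1, with an exact 95% interval of 15.2 to 468.2 that covers counting error only. Both genes were low in WT, so the depth limits what can be said of the size of their differences.

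Asic4 was at 0.644, 0.590, 4.75 and 3.74 CPM in WT distal and at 0.0559, 0, 0.113 and 0.0457 CPM in HSCR distal libraries, where it had 8 counts in all. The means of 2.43 ± 2.14 and 0.0536 ± 0.0464 CPM differed 45.3-fold. In WT, libraries 3 and 4 held most of the transcript, as they did for Creg2.

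Fam219a and Rgl3 were lower but present in HSCR distal colon. Fam219a, per length the most abundant of the 6, was at 16.1, 32.3, 28.1 and 32.4 CPM in WT and at 9.58, 9.45, 11.9 and 12.9 CPM in HSCR. Its means of 27.2 ± 7.66 and 10.9 ± 1.72 CPM differed 2.49-fold, and its groups were the closest in ratio, with 16.1 CPM in the lowest WT and 12.9 CPM in the highest HSCR library. Rgl3 was at 1.80, 6.71, 5.68 and 1.68 CPM in WT and at 0.475, 0.292, 0.791 and 0.251 CPM in HSCR, with means of 3.97 ± 2.61 and 0.452 ± 0.246 CPM that differed 8.78-fold. Without the library labelled HSCR distal 1, the fitted log2 fold changes were -5.44 for Asic4, -1.27 for Fam219a and -3.21 for Rgl3, where they were -5.40, -1.31 and -3.16 with it. Plcxd3 was at 0 in the other 3 HSCR distal libraries as well, and the value for Ccdc170 was -5.36 without that library and -5.67 with it. HSCR proximal library 1, the other library of doubtful segment, had 0.300 CPM of Plcxd3 and 0.824 CPM of Ccdc170, the latter above WT distal libraries 2 and 4. The absence of Plcxd3 from HSCR distal colon and the separation of Ccdc170 therefore rest on the segment labels of these 2 libraries, whereas Creg2 (0.225 CPM), Asic4 (0.225 CPM), Fam219a (6.92 CPM) and Rgl3 (0.899 CPM) in HSCR proximal library 1 also lay below all WT distal libraries.

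**Figure D2:**
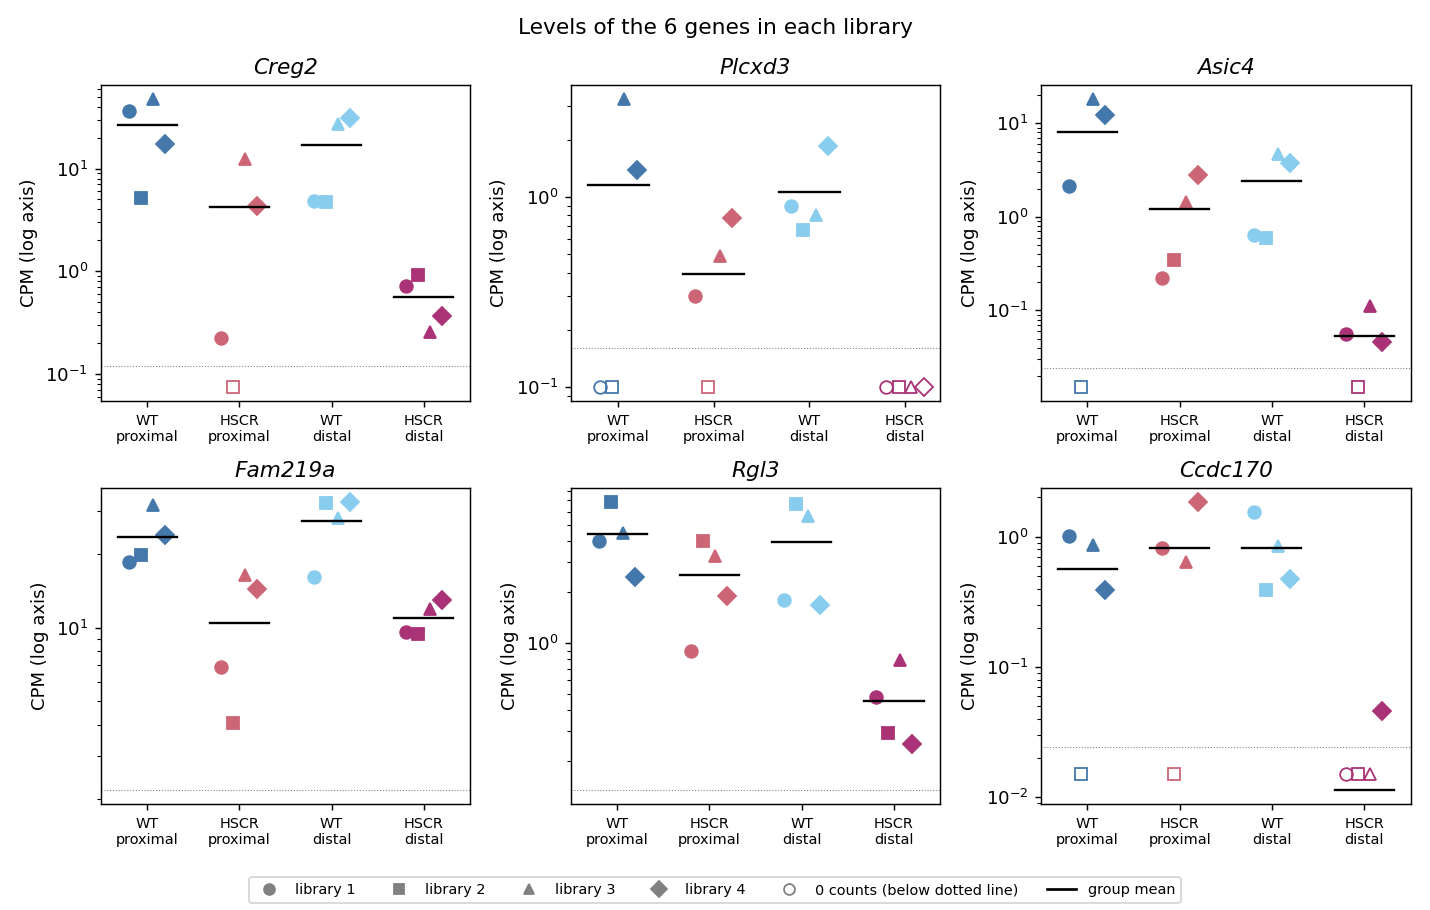
CPM on a log axis (y) of each of the 6 genes in the 4 libraries of each group (x). Filled symbols are libraries with counts, open symbols below the dotted line are libraries at 0 counts, and bars are group means, not drawn where the mean is 0. In the HSCR distal group Plcxd3 is at 0 in all 4 libraries and every gene lies below its WT distal libraries, while in the HSCR proximal group only Fam219a lies wholly below WT proximal.

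Ordered by p-value in the distal fit, the 6 genes held places 1 (Creg2), 3 (Plcxd3), 4 (Asic4), 7 (Fam219a), 8 (Ccdc170) and 9 (Rgl3) among the 197 genes with no overlap, an order that follows from the choice. The genes between them were Drd2, the dopamine D2 receptor, and the transcripts 2610028E06Rik and Gm30373, and the next after them was Kcng4, a modifier subunit of potassium channels with a log2 fold change of -1.77. These 4 were named after their values were seen. No gene passed an adjusted p of 0.05 in edgeR's distal fit (450 of 17059 genes, 2.64%, had an unadjusted p under 0.05), beside 45 genes with DESeq2 and 1453 with the likelihood ratio test and 4 factors of unwanted variation. Nothing is read from these counts for the 6 genes.

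The contrast with neuronal genes was clearest in 2 libraries. Elavl4, which encodes the neuronal RNA-binding protein HuD, was at 2.45, 22.2, 109.6 and 79.0 CPM in WT distal libraries 1 to 4 and at 41.2, 0.438, 0.508 and 0.0913 CPM in HSCR distal libraries, so its groups overlapped. The library labelled HSCR distal 1 held 1475 Elavl4 counts and none of Plcxd3, none of Ccdc170 and 2 of Asic4. WT distal library 1 held 76 Elavl4 counts, with 151 of Creg2, 28 of Plcxd3, 48 of Ccdc170 and 20 of Asic4. Per 100 Elavl4 reads, Creg2 stood at 199 in WT distal library 1 and at 1.76 in the library labelled HSCR distal 1. In these 2 libraries the 6 genes followed the genotype label, as their choice required, and Elavl4 did not.

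The other distal libraries show how much these ratios depend on Elavl4 itself. WT distal libraries 2 to 4 had 21.3, 24.6 and 39.2 Creg2 reads per 100 Elavl4 reads. HSCR distal libraries 2 to 4 had 208, 50.0 and 400, over only 12, 18 and 4 Elavl4 counts. Fam219a in the same HSCR libraries had 2158, 2339 and 14120 reads per 100 Elavl4 reads, so it was read in tissue with almost no Elavl4. In LMMP as a whole, fewer cells of a type and less RNA per cell cannot be told apart.

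**Figure D3:**
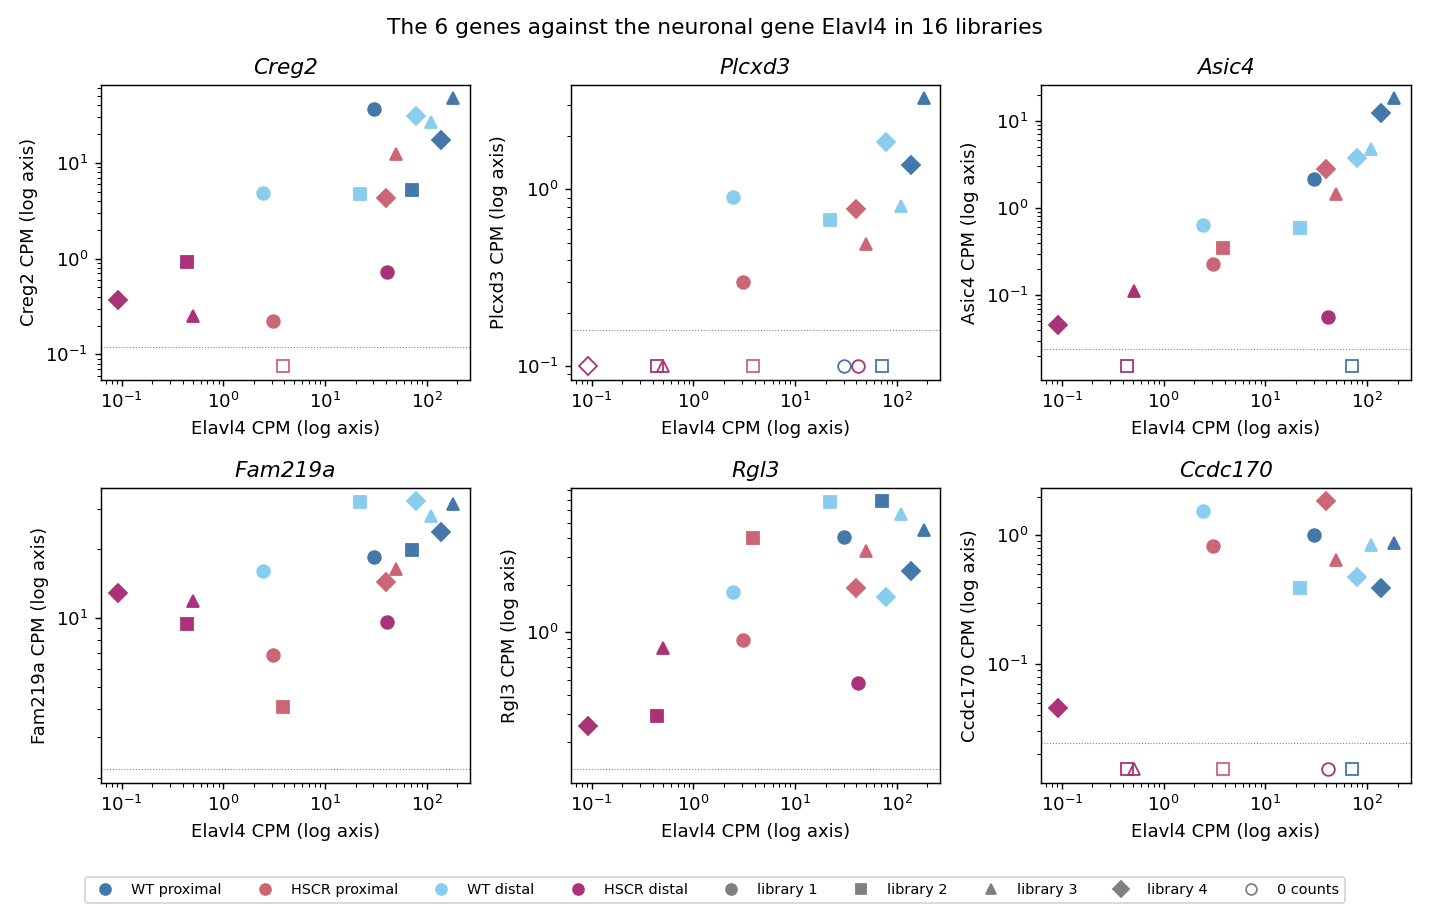
CPM of each of the 6 genes (y, log axis) against CPM of Elavl4 (x, log axis) in the 16 libraries. Colours give the group, symbols the library number and open symbols libraries with 0 counts of the gene. The library labelled HSCR distal 1 lies at 41.2 CPM of Elavl4 and low on all 6 genes, and WT distal library 1 lies at 2.45 CPM of Elavl4 with Creg2 at 4.86 CPM.

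The whole enteric neuron list overlapped between genotypes in the distal colon only through the library labelled HSCR distal 1. The other 3 HSCR libraries summed to 156, 58.0 and 33.1 CPM, below the lowest WT library at 164 CPM, so that without it the list was separated as the 6 genes were. The mean log2 CPM of the list was 3.26 lower in HSCR with that library and 4.61 lower without it. Over all 8 libraries its summed level ranged from 164 to 3178 CPM in WT and from 33.1 to 1707 CPM in HSCR distal libraries. Of its 18 genes tested, 16 lay below 0 on the log2 scale, where 46.1% of all genes tested did. None had an unadjusted p under 0.05 in edgeR's fit, beside 2.64% of all genes tested. The listed genes above 0 were Nefm (0.03) and Nefl (0.23). Chat, which encodes the acetylcholine-synthesizing enzyme, was too low to be tested in the distal fit. It was at 0 in all 4 HSCR distal libraries and ranged from 0 to 8.405 CPM in WT distal libraries, so its groups overlapped. The highest levels of Vip (377 CPM) and Uchl1 (218.1 CPM) among HSCR distal libraries were those of the library labelled HSCR distal 1. The glia list ranged from 144 to 550 CPM in WT and from 57.7 to 291 CPM in HSCR distal libraries. The part of neuron and glia content in the distal differences of the 6 genes was not tested.

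The proximal comparison addresses whether lower levels were also present in the segment that keeps its ganglia. Of the 6 genes, 5 had a fitted log2 fold change below 0 (Plcxd3 not on the mean log2 CPM), where 46.8% of the 16664 genes tested did. The median of the 6 was -1.37, beside 0.04 over all genes tested. None passed an adjusted p of 0.05 in edgeR's quasi-likelihood test, as none of all genes tested did (0% called, and 6.62% or 1103 genes at an unadjusted p under 0.05). DESeq2 called 242 genes and none of the 6. In edgeR's quasi-likelihood test Fam219a was the only member at an unadjusted p under 0.05, a level that 4.13% of all genes reached in the lower direction. With DESeq2, Creg2 (unadjusted p = 0.0441), Asic4 (0.0413) and Fam219a (0.0164) were under 0.05, as were 2113 genes in either direction. Fam219a was also the only member with every HSCR library below every WT library, which 2.83% of all genes showed. No member had every HSCR library above every WT library, as 1.95% of all genes had.

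Fam219a was at 18.4, 19.8, 31.6 and 23.8 CPM in WT proximal and at 6.92, 4.08, 16.4 and 14.4 CPM in HSCR proximal libraries. The means were 23.4 ± 5.91 and 10.4 ± 5.88 CPM, with no overlap. The log2 fold change was -1.18 (SE 0.45, edgeR adjusted p = 0.747), and the exact two-sided permutation test over the 8 libraries gave p = 0.0286, the smallest that 4 against 4 allows and not adjusted for the 6 genes tested this way. The difference of mean log2 CPM was -1.84 among libraries 1 and 2 and -0.84 among libraries 3 and 4. These 2 sets are called the library name series. Libraries 1 and 2 share a naming scheme, whereas libraries 3 and 4 carry names of mixed kinds, so the split need not be a batch. The fitted log2 fold change was -1.01 without HSCR library 1 and -0.92 without HSCR library 2, which hold few neuronal transcripts.

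Creg2 was at 36.7, 5.21, 47.2 and 17.2 CPM in WT proximal and at 0.225, 0, 12.4 and 4.34 CPM in HSCR proximal libraries. HSCR library 3 lay above WT library 2, and the other 3 HSCR libraries lay below all WT libraries. The log2 fold change was -2.68 (SE 1.44, edgeR adjusted p = 0.762, exact permutation p = 0.0571), so the difference did not pass at this spread between libraries. It was -2.27 without HSCR library 1 and -2.26 without HSCR library 2. The likelihood ratio test with 4 factors of unwanted variation in edgeR called Creg2 (log2 fold change -4.60, edgeR adjusted p = 5.18e-11) and Fam219a (-1.32, edgeR adjusted p = 0.000909), in a fit that called 3455 genes.

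Asic4 was at 2.15, 0, 18.1 and 12.3 CPM in WT proximal and at 0.225, 0.346, 1.46 and 2.79 CPM in HSCR proximal libraries. WT library 2, with 0 counts, lay below all HSCR libraries, and WT libraries 3 and 4 lay above them all. Its log2 fold change of -2.75 (SE 1.51) did not pass (edgeR adjusted p = 0.762). Rgl3 was at 4.02, 6.82, 4.49 and 2.46 CPM in WT and at 0.899, 4.01, 3.29 and 1.91 CPM in HSCR, and its groups overlapped. Its log2 fold change of -0.83 (SE 0.60) did not pass either (edgeR adjusted p = 0.806). Without HSCR library 1 these values were -2.38 for Asic4 and -0.54 for Rgl3. On the mean log2 CPM, which the exact permutation test compares, the differences were -1.08 for Asic4 (p = 0.743) and -0.93 for Rgl3 (p = 0.143).

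Plcxd3 and Ccdc170, the genes with almost no reads in HSCR distal colon, were both read in HSCR proximal colon. Plcxd3 had 12, 0, 26 and 22 counts in HSCR and 0, 0, 132 and 32 counts in WT proximal libraries, so 2 WT libraries lacked it. Its log2 fold change was -1.57 (SE 1.71, edgeR adjusted p = 0.862) and rested largely on WT library 3, without which it was -0.28. Ccdc170 had 33, 0, 34 and 52 counts in HSCR and 14, 0, 35 and 9 counts in WT, with a log2 fold change of 0.54 (SE 1.45, edgeR adjusted p = 0.952) that turned to -0.23 without HSCR library 4. On the mean log2 CPM the difference of Plcxd3 had the opposite sign, at 0.23 (exact permutation p = 1.0), and that of Ccdc170 was 0.37 (exact permutation p = 0.771). Of these counts, 12 of Plcxd3 and 33 of Ccdc170 came from HSCR proximal library 1, whose segment is in doubt. Both genes were read in HSCR proximal libraries 3 and 4 as well.

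**Figure D4:**
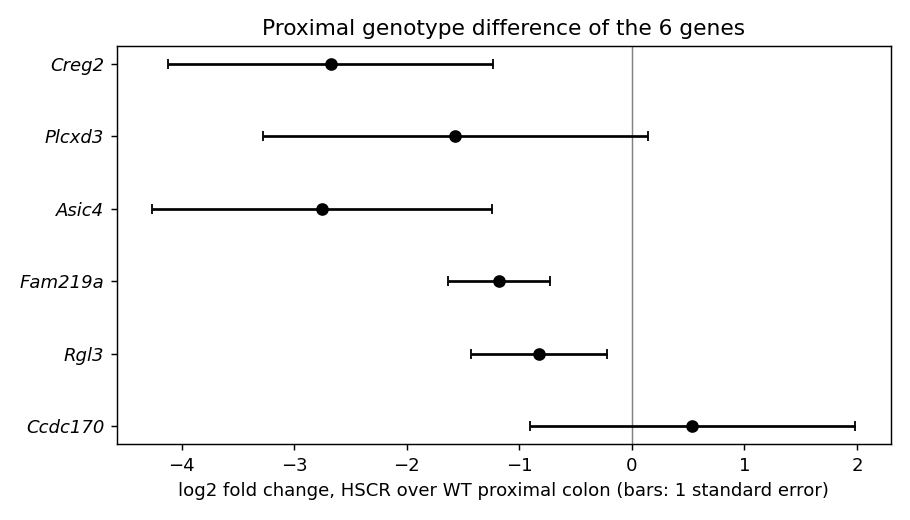
Log2 fold change of HSCR over WT proximal colon (x axis) for the 6 genes, from edgeR's quasi-likelihood fit of 4 against 4 libraries, with bars of 1 standard error. The 5 genes other than Ccdc170 (0.54) lie below 0, from -2.75 for Asic4 to -0.83 for Rgl3, and none passed an adjusted p of 0.05.

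Marker lists of several cell types differed in level between the proximal groups, none past an exact permutation p of 0.05. The mean log2 CPM of the neuron list was 2.65 lower in HSCR (exact permutation p = 0.143), with summed levels of 798 to 5044 CPM in WT and 124 to 3264 CPM in HSCR. Of its genes, 18 of 19 lay below 0, beside 46.8% of all genes tested. In edgeR's fit 9 of 19 were lower at an unadjusted p under 0.05, beside 4.13% of all genes tested. Elavl4 was at 30.3, 72.1, 183 and 137 CPM in WT and at 3.07, 3.84, 49.9 and 39.7 CPM in HSCR, and its log2 fold change was -2.15 (SE 0.95, edgeR adjusted p = 0.747). Vip was the only neuron gene above 0, at 1.83. The glia list was 1.74 lower (p = 0.0571 by the exact permutation test), with 7 of 8 genes below 0, and summed to 380 to 819 CPM in WT and 79.3 to 410 CPM in HSCR. The epithelial list was 5.18 higher (exact permutation p = 0.0857), and summed to 22.5 to 3477 CPM in WT and 205 to 14130 CPM in HSCR.

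The adipocyte list was 2.30 lower (exact permutation p = 0.0571). The differences were -0.58 for smooth muscle, -0.25 for interstitial cells of Cajal, -0.17 for fibroblasts, 0.08 for macrophages, -0.27 for endothelium, -0.98 for mesothelium and 0.71 for the posterior Hox genes, with exact permutation p-values from 0.343 to 1.0. Without HSCR library 2, which had little muscle, they were 0.38 for smooth muscle, 0.32 for interstitial cells of Cajal, 0.51 for fibroblasts, -0.01 for macrophages, 0.24 for endothelium and 0.78 for mesothelium, each with the opposite sign. The neuron list was 1.93 lower without HSCR library 1 and 2.03 lower without HSCR library 2. The part of these cell types, and of the mitochondrial share given above, in the proximal levels of the 6 genes was not tested.

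On the neuron list the proximal libraries fell into 2 sets, HSCR libraries 1 and 2 at or below 1.77 and the other 6 libraries at or above 4.53, so the levels of the 6 genes were set against it within those 6 libraries only. None of the 6 relations had an exact permutation p under 0.05. The highest were Fam219a (r = 0.793, p = 0.0639 and rho = 0.714, p = 0.136, exact permutation tests) and Plcxd3 (r = 0.761, p = 0.0611 and rho = 0.783, p = 0.0778, exact permutation tests). Without WT libraries 3 and 4, which hold the most neuronal transcripts, these became -0.139 and 0.441, so the relations rested on those libraries. The values for the other genes were r = 0.298 and rho = 0.429 for Creg2 (exact permutation p = 0.536 and 0.419), 0.455 and 0.543 for Asic4 (0.317 and 0.297), -0.017 and 0.143 for Rgl3 (0.992 and 0.803), and -0.034 and -0.429 for Ccdc170 (0.808 and 0.419). Without the same 2 libraries r was -0.719 for Creg2, -0.448 for Asic4, 0.092 for Rgl3 and -0.444 for Ccdc170. With Elavl4 alone in place of the list, Fam219a reached r = 0.883 (exact permutation p = 0.025), and 0.363 without those 2 libraries. None of these p-values was adjusted for the 6 genes. The 6 libraries mix both genotypes, so r can also hold the genotype difference.

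Levels per length, as FPKM (fragments scaled by gene length and library size) in the authors' table, placed the genes far apart. In WT distal colon Fam219a was at 7.06 ± 1.82 FPKM and Creg2 at 2.59 ± 2.06 FPKM. Rgl3 (0.992 ± 0.663 FPKM) and Asic4 (0.836 ± 0.717 FPKM) were next and did not differ beyond their spread, as Ccdc170 (0.214 ± 0.150 FPKM) and Plcxd3 (0.201 ± 0.0891 FPKM) did not. Elavl4 in the same libraries was at 9.26 ± 8.52 FPKM. In WT proximal colon the means were 6.18 FPKM for Fam219a, 4.30 for Creg2, 2.88 for Asic4, 1.12 for Rgl3, 0.221 for Plcxd3 and 0.148 for Ccdc170.

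Between the segments, the WT levels of all of these genes overlapped. The difference of mean log2 CPM, distal minus proximal, was -0.75 for Creg2, 0.20 for Fam219a, -0.35 for Rgl3 and 0.01 for Asic4 in WT mice. The value for Asic4 rested on WT proximal library 2, which had no count, and was -2.26 without it. Leaving out 1 library at a time, the values ranged from -2.26 to 1.16 for Asic4, -1.40 to -0.32 for Creg2, 0.09 to 0.43 for Fam219a and -0.69 to -0.03 for Rgl3. The difference was 2.49 for Plcxd3 and 1.42 for Ccdc170, both of which had WT proximal libraries with no count, and without WT proximal library 2 the value for Ccdc170 was 0.01. On the mean CPM Plcxd3 was not higher in the distal colon, at 1.16 in WT proximal and 1.06 in WT distal libraries. In HSCR mice the difference of mean log2 CPM was -3.83 for Plcxd3, -3.87 for Asic4, -2.38 for Rgl3 and -4.08 for Ccdc170. In HSCR distal colon Plcxd3 had no count in 4 libraries, Ccdc170 none in 3, and Asic4 had 8 counts in all. The size of these 3 differences therefore depends on the prior count. The difference was 0.26 for Fam219a and -0.36 for Creg2, and the sign of the latter turned without HSCR proximal library 3 (1.06) or 4 (0.55). All these HSCR values include the 2 libraries whose segment labels are in doubt. The group means of Creg2 stood in the order WT proximal, WT distal, HSCR proximal and HSCR distal, at 26.6 ± 18.9, 16.9 ± 14.0, 4.25 ± 5.82 and 0.564 ± 0.307 CPM, and the libraries of neighbouring groups in this order overlapped at each step.

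Relatives of the 6 genes were measured in the same libraries. Creg1, the widely expressed lysosomal relative of Creg2, was at 29.4 CPM in WT distal and 39.5 CPM in HSCR distal colon, and its proximal log2 fold change was 0.60 (SE 0.48, edgeR adjusted p = 0.819). Plcxd2 was at 4.14 and 2.51 CPM in the distal groups, with a proximal log2 fold change of -0.93, and Plcxd1 was too low to be tested. Of the acid-sensing channels, Asic1 had distal means of 8.67 (WT) and 4.13 CPM (HSCR) and Asic2 of 13.5 and 5.38 CPM, with proximal log2 fold changes of -0.93 and -1.17, neither of which passed. Asic3 and Asic5 were near 0. Fam219b, at 19.1 and 17.7 CPM in the distal groups, had a proximal log2 fold change of -0.46 (SE 0.26, edgeR adjusted p = 0.765).

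Of 11 genes of the Ral pathway, which controls exocytosis and membrane traffic, 8 had a proximal log2 fold change below 0, where 46.8% of all genes tested did. None was at an unadjusted p under 0.05 in edgeR's fit, and the median of the 11 was -0.16. The GTPases Rala (0.05) and Ralb (0.35) and the exchange factors Ralgds (-0.16), Rgl1 (-0.72) and Rgl2 (-0.42) all lay nearer to 0 than Rgl3. Rgl1 (SE 0.37) and Rgl3 (-0.83, SE 0.60) did not differ beyond their standard errors. Ralgapa2, at 1.00 (SE 0.63), lay farther from 0 than Rgl3. The ciliary list that holds Ccdc170 had 8 of 10 tested genes below 0, where 46.8% of all genes tested were. Beside 4.13% of all genes tested, 2 of the list were lower at an unadjusted p under 0.05 in edgeR's fit. Those were Foxj1, the master transcription factor of motile cilia (8.56 CPM in WT and 1.02 CPM in HSCR proximal colon, log2 fold change -3.09, edgeR adjusted p = 0.599), and Tekt1, a tektin of ciliary microtubules (3.06 and 0.197 CPM, log2 fold change -3.96, edgeR adjusted p = 0.747).

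The genes next to the 6 on the chromosome overlapped between the genotypes in both segments, for 12 of 12 neighbours. Such overlap was usual among all genes tested. In the distal colon 1.15% of genes had every HSCR library below every WT library, and 0.674% above. In the proximal colon these shares were 2.83% and 1.95%. In the distal groups Rnf149 beside Creg2 was at 14.9 CPM in WT and 21.3 CPM in HSCR. Oxct1 beside Plcxd3 was at 194.9 and 183 CPM. Gmppa beside Asic4 was at 42.8 and 43.4 CPM and Chpf at 56.5 and 68.4 CPM. Beside Ccdc170, Armt1 was at 8.34 and 8.07 CPM and Esr1 at 12.2 and 12.3 CPM. The neighbours of Fam219a were lower in HSCR, Enho at 26.95 and 18.1 CPM and Spmip6 at 0.443 and 0.108 CPM. Those of Rgl3 were lower as well, Epor at 2.00 and 1.26 CPM and Odad3 at 0.211 and 0.0768 CPM. Rfx8 beside Creg2 and C6 beside Plcxd3 were near 0.

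Over all 16 libraries, as a description of points that share their genotype and depth, the 6 genes were most alike in the pair Creg2 and Fam219a (Pearson r of log2 CPM 0.895) and Plcxd3 and Ccdc170 (0.801), and least alike in Rgl3 and Ccdc170 (0.393). The distal libraries that chose the genes enter these values. Within the 8 WT libraries alone the same pairs had 0.364, 0.53 and -0.449.

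Among 18756 genes, those with levels most like Creg2 were Dlg4 (r = 0.926), the postsynaptic scaffold PSD-95, Tmod2 (0.914), a neuronal tropomodulin, and Vstm2a (0.911). For Fam219a they were Zbtb46 (0.930), Adora1 (0.919), the adenosine A1 receptor, and Ppfia2 (0.911), a presynaptic liprin. Asic4 was most like Stxbp5l (0.923), which encodes tomosyn 2, Drc1 (0.904), a ciliary dynein regulator, and Ncoa7 (0.895). Plcxd3 was most like 9930111J21Rik1 (0.919), Chrm4 (0.860), the muscarinic M4 receptor, and Atp8b3 (0.847). Rgl3 was most like Dnajc12 (0.870), Ipo8 (0.851) and 4930469K13Rik (0.849), and Ccdc170 like 2610028E06Rik (0.925), 3010001F23Rik (0.877) and Gm2693 (0.864), 3 transcripts of low level. Elavl4 had r from 0.714 with Rgl3 (place 64) to 0.434 with Ccdc170 (place 1636). These places are not independent of the choice of the 6 genes, since the distal libraries enter them.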

How the data were processed

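RNA was polyA-selected from LMMP of 16 libraries, 4 per group. Per the labels and the submitters' processing notes, reads were aligned with HISAT2 2.2.1 to mm39 and counted per gene with featureCounts 2.0.6 against GENCODE. The deposited table holds raw counts and FPKM computed by the authors. Its columns of the authors' own comparisons (log2 fold changes, p-values) were not used. Protocols name both strand-specific and unstranded kits. No 2 libraries held identical values.

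Counts were fitted per segment with edgeR 4.0.16 in R 4.3.3 (quasi-likelihood test, filterByExpr, TMM, Benjamini-Hochberg over all genes tested, call at adjusted p under 0.05). CPM used TMM factors over 16 libraries, with a prior count of 0.5 on the log2 scale. For single values, an exact permutation test (two-sided, smallest p 0.0286) was used. The code was tested on simulated data, where recovery was required only at a dispersion below that of these libraries. The power of the fits reported here is not shown by that test. Alternatives were DESeq2 1.42.0, 4 RUVr factors with edgeR's likelihood ratio test (after the method the paper names), scaling, filter, series, block and leave-one-out fits. The RUVr factors were computed here from the residuals of the same 8 libraries. No fold change threshold was set, where the paper also required one, so this fit is not a rerun of the published test. P-values measure the spread between libraries.

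The 6 genes and all lists were chosen with earlier results of these data known. Genes named are the 6, Ednrb, neuron markers, family and pathway relatives, and per gene the 3 with the highest r.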

Additional observations from a re-analysis of the deposited data

Results flagged for a closer look

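Of 32 groups of 4 libraries checked (the 6 genes, Elavl4 and Ednrb in each group), 3 held a library far from the other 3. For normally distributed values the rule flags about 1 in 20, a rate that need not hold for skewed CPM or for groups with counts near 0. Elavl4 was at 41.2 CPM in the library labelled HSCR distal 1 and at 0.508 CPM in the next highest of its group. Ednrb was at 94.8 CPM in the same library and at 9.48 CPM in the next. Ccdc170 was at 0.0457 CPM, or 2 counts, in HSCR distal library 4 and at 0 in the other 3. For the 6 genes, the library labelled HSCR distal 1 did not lie above the rest of its group.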

How the results depend on the processing

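The count of genes called in the proximal colon (0 with edgeR's quasi-likelihood test) was 242 with DESeq2, 3455 with RUVr and the likelihood ratio test and 4 with the library name series as a term. In the distal colon it was 45 with DESeq2 and 1453 with RUVr. It was 0 in all 8 leave-one-out fits of each segment. With RUVr, Creg2 (-4.60) and Fam219a (-1.32) passed in the proximal colon and Ccdc170 turned to -0.56. Plcxd3 turned to 0.15 with the series as a term, and Ccdc170 to -0.23 (-0.234) without HSCR replicate 4. The cause was not tested. Leaving out 1 library, proximal log2 fold changes ranged from -4.10 to -2.26 for Creg2, -2.15 to -0.28 for Plcxd3, -3.61 to -2.03 for Asic4, -1.44 to -0.92 for Fam219a, -1.15 to -0.54 for Rgl3 and -0.23 to 0.97 for Ccdc170. Over all alternatives, adjusted p ranged from 5.18e-11 to 0.936 for Creg2, 0.481 to 0.993 for Plcxd3, 0.433 to 0.936 for Asic4, 0.000909 to 0.936 for Fam219a, 0.0624 to 0.936 for Rgl3 and 0.839 to 0.991 for Ccdc170. In the distal fit, Plcxd3 (-8.29) was -7.65 with DESeq2 and -8.82 with RUVr, fitted values of a gene at 0 that depend on the prior count, and Ccdc170 (-5.67) ranged from -7.91 without HSCR replicate 4 to -5.16. In the relation with the neuron list, Fam219a had r = 0.859 with no TMM factors (exact permutation p = 0.0333). With Elavl4 alone it had r = 0.883 (exact permutation p = 0.025). Neither p was adjusted for the 6 genes, and Rgl3 had r = 0.277 and 0.17. Leave-one-out was not run there, because under 6 libraries would remain. Among the marker lists, recomputed without HSCR replicate 1 or 2 as an alternative chosen after seeing the data, leaving out HSCR replicate 2 turned the sign of 6 proximal differences. The ranges over both were -0.93 to 0.38 for smooth muscle, -0.41 to 0.32 for interstitial cells of Cajal, -0.49 to 0.51 for fibroblasts, -0.013 to 0.19 for macrophages, -0.41 to 0.24 for endothelium and -1.42 to 0.78 for mesothelium. Without TMM factors the median of all proximal genes moved from 0.04 to 0.30.

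Whether same-numbered WT and HSCR libraries were littermate pairs was not stated, and the main fits did not pair them. Their deviations from the group means correlated at -0.118 to 0.245 (proximal) and -0.214 to 0.425 (distal). These values cannot decide the pairing. With the replicate block no gene passed in edgeR in either segment (1127 proximal and 731 distal genes at an unadjusted p under 0.05), and proximal values were -4.32 for Creg2, -0.48 for Plcxd3, -2.04 for Asic4, -1.35 for Fam219a, -0.93 for Rgl3 and 0.40 for Ccdc170.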
